A study of Mus musculus with 8 samples.

Results

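The genes described here were 37 antioxidant and redox defence genes, out of 39056 genes in the count table. They were listed by name, for what their proteins do. The rule used no measured value, but the list was drawn up with earlier results of these data known. They comprised 3 superoxide dismutases, catalase with 5 glutathione peroxidases, 6 peroxiredoxins with sulfiredoxin, 7 genes of the thioredoxin system and methionine repair, 4 genes of glutathione synthesis and reduction, 3 glutathione transferases, 5 genes of the NRF2 axis, and Nnt with Ucp2 from the mitochondrial inner membrane. All 37 passed the filter on low counts and were tested.

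RNA was measured by poly-A RNA-seq in heart samples from 4 mice without the voltage-gated proton channel HVCN1 (Hv1; HVCN1 null) and 4 wild-type (WT) mice, with 1 library per heart. All animals were male, 3 months old and of a C57BL/6 background, and no treatment other than the knockout is named. The hearts are numbered here as HVCN1 null 1 to 4 and WT 5 to 8, which are names only and pair no animals, and values of single hearts are listed in that order. How the null allele was made, which C57BL/6 substrain each group came from, whether the WT mice were littermates and which part of the heart was taken are not given in the sources used here. Because each library mixes all cells of the sample, fewer cells of a type and less RNA per cell cannot be told apart.

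Cells meet superoxide and peroxides with a chain of enzymes. Superoxide dismutases turn superoxide into hydrogen peroxide, which catalase, glutathione peroxidases and peroxiredoxins then reduce. The peroxidases are recharged by glutathione and thioredoxin, whose reductases draw on NADPH, and the transcription factor NRF2, held in check by KEAP1, drives many of these genes through antioxidant response elements. The heart has many mitochondria, and several of these enzymes have mitochondrial forms.

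Each HVCN1 null library held between 25851255 and 36396297 counts, and each WT library between 32595114 and 38874640. Hvcn1 itself gave 6, 6, 1 and 3 counts without the channel and 102, 49, 99 and 68 counts in WT animals, which fits the labels (log2 fold change -4.20, SE 0.38, adjusted p = 3.626e-04, edgeR's quasi-likelihood test, n = 4 and 4). The summed CPM (read counts scaled to a common library size by edgeR's TMM method) of 8 cardiomyocyte markers was 60420 to 77280 in HVCN1 null and 65040 to 78480 in WT hearts. Hearts differed within both genotypes in atrial markers, whose summed CPM was 3445 to 8287 in HVCN1 null hearts 2 and 3 and WT hearts 5 and 7 (called atrium-rich below) and 109 to 356 in the other 4 (atrium-poor). Bmp10, an atrial growth factor gene, gave 15633 counts in HVCN1 null heart 2, 21695 in WT heart 7 and 109 in HVCN1 null heart 4, and at most 6 in any other heart. Both classes held 2 hearts of each genotype, and they were drawn from the data, not from the labels. All 12 macrophage markers had negative log2 fold changes, though none was called (summed CPM 329.8 to 426 in HVCN1 null and 397 to 574 in WT hearts). The same held for all 8 erythroid markers (1296 to 8427 and 3037 to 15300).

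Across the antioxidant genes, 1 of 37 (2.70%) was a differentially expressed gene (DEG) at an adjusted p under 0.05, against 1.14% of all 14796 tested genes (169 DEGs). That gene was Txnip, the inhibitor of thioredoxin, whose RNA was lower in HVCN1 null hearts than in WT hearts. At an unadjusted p under 0.05 there were 6 of the 37 (16.2%), against 11.0% of all tested genes. They were Txnip, Srxn1, Gclm, Mgst1 and Cat with lower values in HVCN1 null hearts and Nfe2l2, which encodes NRF2, with higher ones. The CPM values of the 2 genotypes did not overlap for 5 of the 37 (13.5%), namely those genes without Cat, against 7.06% of all tested genes. These counts describe the list, and nothing particular to it is read from them. The macrophage and erythroid markers, all with negative values as given above, shared the direction of the 5 lower genes. So did all tested atrial (7), neutrophil (4) and adipocyte (5) markers, none of which was called. Of the 12 macrophage markers, 6 had an unadjusted p under 0.05, and 2 did not overlap between the genotypes. These 2 were Cx3cr1 (-0.92, adjusted p = 0.05609, edgeR) and Lyz2 (-0.53, adjusted p = 0.1441). Of the 8 erythroid markers, 2 had an unadjusted p under 0.05, and all overlapped. No atrial, neutrophil or adipocyte marker had an unadjusted p under 0.05 or lacked overlap. Among single markers, Acta2, of smooth muscle, was a DEG higher in HVCN1 null hearts (1.32, SE 0.26, adjusted p = 0.04664, edgeR), and Actc1, cardiac actin, had -0.51 without overlap (SE 0.12, adjusted p = 0.1051). Neither stood for its list. The 7 smooth muscle and pericyte markers held 4 positive and 3 negative values, with a median of 0.08. The 8 cardiomyocyte markers held 2 positive and 6 negative values, with a median of -0.10. The part of any of these cell types in the values of the antioxidant genes was not tested.

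Log2 fold changes were HVCN1 null over WT, so a negative value is lower in HVCN1 null hearts. Among the 37 genes 16 had positive and 21 negative values, with a median of -0.05, against a median of -0.01 over all tested genes. The median absolute value was 0.14, against 0.12 over all tested genes. For 29 of the 37 genes the absolute value was under 0.25.

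**Figure D1:**
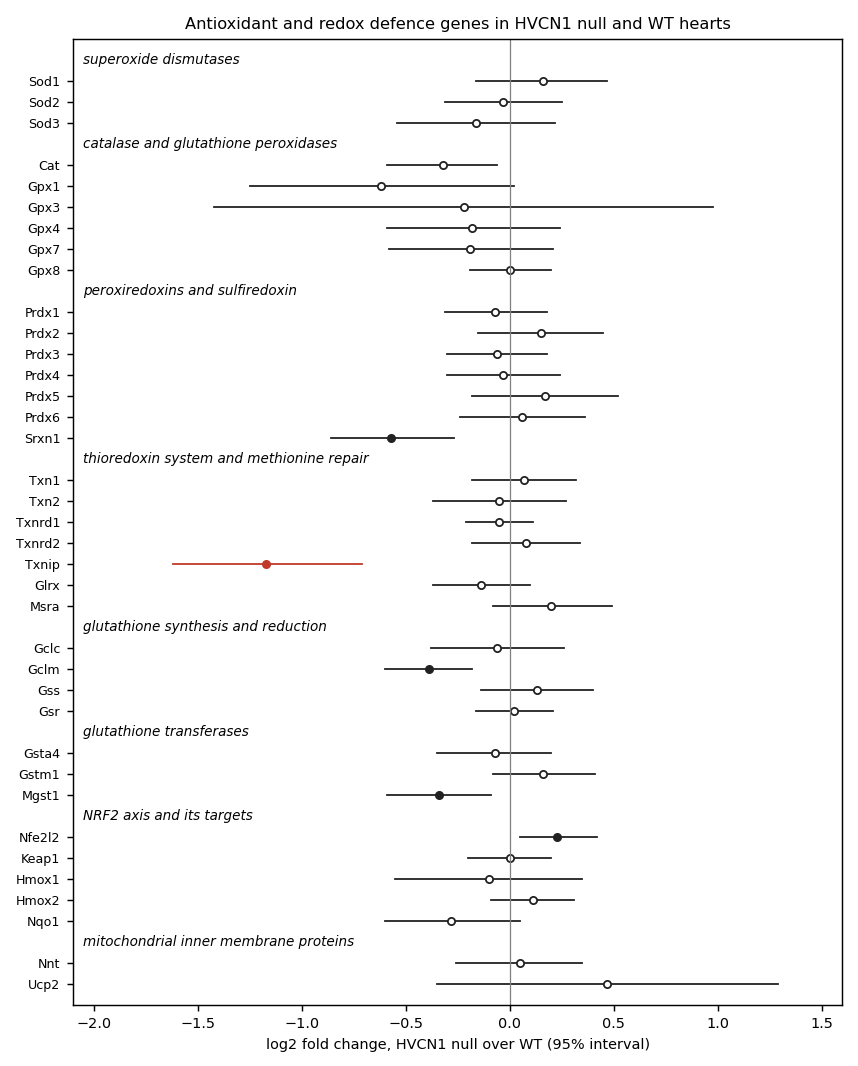
Log2 fold change (HVCN1 null over WT, horizontal axis) of each of the 37 genes, grouped by role, with its 95% interval from edgeR's quasi-likelihood fit (n = 4 and 4). The red point is the gene with an adjusted p under 0.05, Txnip at -1.17, and filled points mark the 5 genes whose genotypes did not overlap, while the intervals of all but 6 genes include 0.

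By level, the set was abundant in the heart. Counted per kilobase of exon, 35 of the 37 genes lay above the median of all tested genes in WT hearts. Gpx4, the peroxidase that reduces lipid hydroperoxides within membranes, was the most abundant at 319.6 ± 80.5 CPM per kb in WT hearts (SD, n = 4). Gpx3, the secreted glutathione peroxidase, followed at 243 ± 184, and Txnip came next at 215 ± 46.4. The spreads of these 3 genes overlapped, so their order is not settled by these hearts. Gstm1 stood at 141 ± 10.4, Prdx5 at 133 ± 17.4 and Prdx3 at 111 ± 12.2 CPM per kb. The means of Gstm1 and Prdx5 lay within each other's SD, while that of Prdx3 lay outside the SD of Prdx5. At the other end were Glrx, encoding glutaredoxin, at 2.15 ± 0.229 and Gss, glutathione synthetase, at 1.92 ± 0.184 CPM per kb, a difference of the size of their SDs. Over the 8 hearts the steadiest gene was Txnrd1, the cytosolic thioredoxin reductase, with a coefficient of variation of its CPM of 3.39%. The most variable was Gpx3, at 63.4%.

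**Figure D2:**
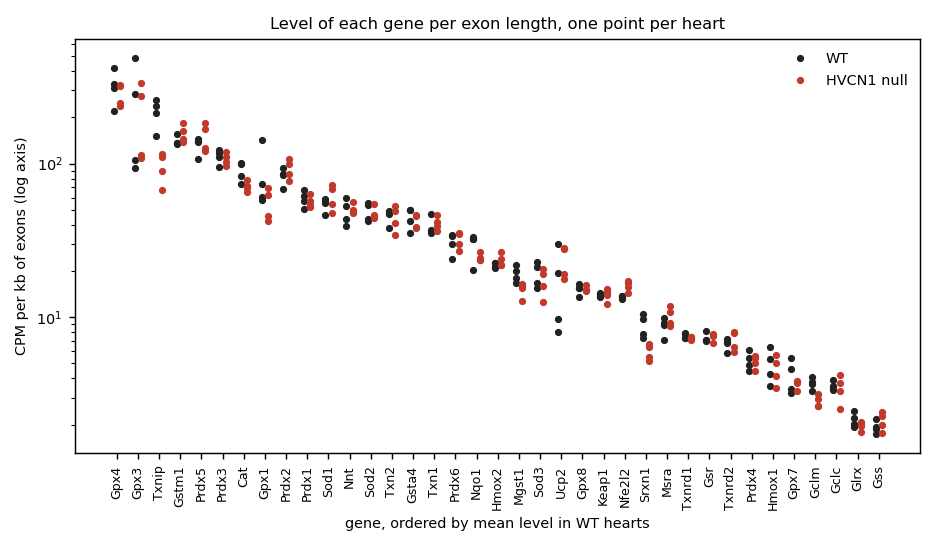
Level of each of the 37 genes in each heart, in CPM per kb of exons on a log axis, with genes ordered by their mean in WT hearts (black points, WT; red points, HVCN1 null). Gpx4, Gpx3 and Txnip are highest and Glrx and Gss lowest, and the red and black points of Txnip stand apart.

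Txnip (ENSMUSG00000038393, chromosome 3, 96557957 to 96561883, plus strand; all positions are on GRCm38) encodes the arrestin-fold protein that binds reduced thioredoxin and also limits glucose uptake. HVCN1 null hearts read 279, 363, 209.8 and 347 CPM, and WT hearts 669, 806, 743 and 472 CPM. Every HVCN1 null heart was below every WT heart, with HVCN1 null heart 3 the lowest and WT heart 6 the highest. Means were 299.7 ± 70.01 and 673 ± 145 CPM (SD, 4 hearts each), and the log2 fold change was -1.17 (SE 0.20, 95% interval -1.62 to -0.71, adjusted p = 0.02413, edgeR's quasi-likelihood test). Of the 169 DEGs, none had a higher mean CPM in WT hearts than Txnip, while 99 had a larger absolute log2 fold change and 106 a smaller p. The log2 ratio of mean CPM was -1.30 within the atrium-rich hearts and -1.03 within the atrium-poor hearts. The genotypes overlapped in neither class, which follows from their lack of overlap over all hearts and adds nothing to it. The call depended on single hearts. The adjusted p was 0.09276 without HVCN1 null heart 1 (log2 fold change -1.13), 0.05558 without HVCN1 null heart 3 (-1.03), 0.07257 without WT heart 5 (-1.16), 0.08756 without WT heart 6 (-1.07) and 0.05499 without WT heart 7 (-1.11), and over 20 alternatives it ran from 1.143e-06 to 0.3409. The log2 fold change stayed between -1.31 and -1.01 in all 20.

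Txnip is known to be induced by glucose through factors of the Mondo family, which bind pairs of E-box-like sites. The 250 bases before its start, from RefSeq on GRCm38.p6, are shown because Txnip was the gene that was called. They lie at chr3:96557707-96557956 on the plus strand, and capitals mark each match to the site CACGNG on either strand.
Txnip: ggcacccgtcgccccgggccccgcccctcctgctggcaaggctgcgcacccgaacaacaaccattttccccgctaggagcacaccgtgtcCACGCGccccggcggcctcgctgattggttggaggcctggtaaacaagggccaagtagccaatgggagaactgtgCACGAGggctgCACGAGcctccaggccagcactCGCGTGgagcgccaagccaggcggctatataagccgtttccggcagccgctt
The 2 matches CACGAG, on the gene's own strand, were 5 bases apart with the last base at -69 from the start. The match CACGCG upstream of them was on the same strand, and the one nearest the start was read on the other strand. A match to CACGNG was held by 9 of the 39 windows of these genes and by 27.5% of all 32851 windows of this kind in the table, so a single match is common. The palindrome CACGTG, which any CACGNG search also counts, was not in the Txnip window. It was in 1 of the 39 windows, that of Prdx4, and in 7.15% of all windows. A match is a description of letters and says nothing of which factor bound in these hearts.

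None of the other 6 genes of the thioredoxin system and methionine repair passed the test, nor did any have an unadjusted p under 0.05. Txnrd1, the cytosolic reductase, ranged over 50.7 to 55.8 CPM in the 8 hearts, with a log2 fold change of -0.05 (SE 0.07, 95% interval -0.21 to 0.11). Its mitochondrial counterpart Txnrd2 had 0.08 (SE 0.12), and the thioredoxins Txn1, in the cytosol, and Txn2, in mitochondria, had 0.07 (SE 0.11) and -0.05 (SE 0.14). Glrx had -0.14 (SE 0.11). Msra, which repairs oxidised methionine, had 0.20 (SE 0.13, adjusted p = 0.6573). Msra had the lowest adjusted p of the 6, and the genotypes overlapped in CPM for each of them.

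Srxn1 (ENSMUSG00000032802, chromosome 2, 152105516 to 152111376) encodes sulfiredoxin, which restores peroxiredoxins that peroxide has over-oxidised. The 4 HVCN1 null values were 15.6, 14.6, 18.1 and 19.0 CPM and the 4 WT values 29.4, 27.5, 22.1 and 20.7 CPM. All HVCN1 null hearts were below all WT hearts, with a narrow gap between HVCN1 null heart 4 and WT heart 8. The means of 16.8 ± 2.06 and 24.9 ± 4.18 CPM gave a log2 fold change of -0.57 (SE 0.13, 95% interval -0.86 to -0.27), which did not pass the threshold in edgeR's quasi-likelihood test (adjusted p = 0.08956). It was called by edgeR's exact test (adjusted p = 0.01131) and likelihood ratio test (0.0108) and by DESeq2 (0.01021), and over 20 alternatives the adjusted p ran from 0.01021 to 0.6571.

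The 6 peroxiredoxins are thiol peroxidases, most of which thioredoxin recharges, and they lay between -0.07 (Prdx1) and 0.17 (Prdx5) in log2 fold change. Prdx5, found in mitochondria, peroxisomes and cytosol, was the most abundant of them per kilobase. In order of heart, CPM was 259, 269.6, 362 and 391.8 without HVCN1 and 312, 302, 229.6 and 296 with it. The genotypes overlapped, with HVCN1 null heart 4 highest and WT heart 7 lowest (0.17, SE 0.16, adjusted p = 0.8211), and 19.1% of the exon bases of Prdx5 are shared with Trmt112 on the opposite strand. Prdx3, the mitochondrial form, had -0.06 (SE 0.11), Prdx2, the main form of red cells, 0.15 (SE 0.13) and Prdx6, which also acts on phospholipids, 0.06 (SE 0.14). Prdx4, of the endoplasmic reticulum, had -0.03 (SE 0.12). Its direction was unsure, since the value was 0.00 with library sizes not scaled.

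Gclm (ENSMUSG00000028124, chromosome 3, 122245557 to 122270732) encodes the modifier subunit of glutamate-cysteine ligase, the enzyme of the first step of glutathione synthesis. Null animals gave 18.6, 16.5, 16.7 and 19.8 CPM, whereas WT animals gave 24.0, 25.7, 21.0 and 23.1 CPM. The genotypes did not overlap, with means of 17.9 ± 1.58 and 23.4 ± 1.98. The log2 fold change of -0.39 (SE 0.09, 95% interval -0.60 to -0.18) did not pass in edgeR's quasi-likelihood test (adjusted p = 0.1045). It was called by edgeR's exact test (0.04739), its likelihood ratio test (0.04643) and DESeq2 (0.02937), in a range of adjusted p over 20 alternatives of 0.02937 to 0.7538. Gclc, the catalytic subunit of the same ligase, had a log2 fold change of -0.06 (SE 0.14, 95% interval -0.38 to 0.26), with a CPM of 9.46 to 15.8 in HVCN1 null and 12.6 to 14.7 in WT hearts. The difference between the subunits was not tested.

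Gss, which adds glycine to finish glutathione, had 0.13 (SE 0.12, adjusted p = 0.819). Gsr, the reductase that returns oxidised glutathione to its reduced form, was the most abundant gene of this group per kilobase. HVCN1 null hearts read 20.9, 18.7, 21.1 and 21.3 CPM, and WT hearts 19.5, 19.4, 19.2 and 22.4 CPM, which overlapped almost fully (0.02, SE 0.09, 95% interval -0.16 to 0.21).

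Mgst1 (ENSMUSG00000008540, chromosome 6, 138140316 to 138156755) encodes a membrane-bound transferase that also reduces lipid peroxides. The 4 HVCN1 null values were 25.6, 31.2, 33.1 and 32.0 CPM and the 4 WT values 44.1, 40.5, 36.2 and 33.5 CPM. All HVCN1 null hearts were below all WT hearts, but HVCN1 null heart 3 and WT heart 8 nearly met. The log2 fold change was -0.34 (SE 0.11, 95% interval -0.59 to -0.09) and did not pass (adjusted p = 0.2531, edgeR). Gstm1, the most abundant transferase here, gave 214, 205, 271 and 239.5 CPM in null and 230.0, 201, 198 and 200.3 CPM in WT animals. WT heart 5 lay inside the HVCN1 null range, and the log2 fold change was 0.16 (SE 0.11, adjusted p = 0.7029). Gsta4, which clears the lipid aldehyde 4-hydroxynonenal, had -0.07 (SE 0.12).

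Cat (ENSMUSG00000027187, chromosome 2, 103453849 to 103485160) encodes catalase, the peroxisomal enzyme that splits hydrogen peroxide. In order of heart, CPM was 187, 182, 172 and 205 without HVCN1 and 218, 259, 194 and 262 with it. The genotypes overlapped through HVCN1 null heart 4 and WT heart 7. Within the atrium-rich and within the atrium-poor hearts they did not overlap, with log2 ratios of mean CPM of -0.22 and -0.41. With 2 hearts of each genotype in a class, such a lack of overlap is easily met. Txnrd1 also met it in both classes, at -0.03 and -0.07, and the share of all tested genes that did was not counted. Over all hearts the log2 fold change of Cat was -0.32 (SE 0.12, 95% interval -0.59 to -0.06) and did not pass (adjusted p = 0.3108, edgeR).

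Among the glutathione peroxidases, Gpx4 gave 428, 410.3, 557 and 553 CPM in null and 719, 569.7, 381 and 535 CPM in WT animals. Both the highest and the lowest heart were WT, and the log2 fold change was -0.18 (SE 0.19, adjusted p = 0.8512). Reads of Gpx4 can be shared with Gpx4-ps2, a processed pseudogene at least 95% identical to it, whose counts were 5.51% of those of Gpx4. Near-identical copies of 6 further genes (Gclm, Gstm1, Prdx1, Prdx2, Sod1 and Txn1) held at most 0.209% of their counts, and none was found for Txnip or Srxn1. Gpx1, the cytosolic and mitochondrial form, gave 60.6, 65.7, 90.1 and 99.8 CPM in null and 207, 87.9, 107 and 83.0 CPM in WT animals. The highest value was that of WT heart 5, which also had the highest erythroid marker sum, 15300. The log2 fold change of Gpx1 was -0.62 (SE 0.29, adjusted p = 0.4727) and -0.22 without WT heart 5 (adjusted p = 0.7388, in a range of 0.2703 to 0.9702 over 20 alternatives). The part of red cells in this value was not tested. Gpx7 and Gpx8, of the endoplasmic reticulum, had -0.19 (SE 0.18) and 0.00 (SE 0.09).

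The superoxide dismutases overlapped between genotypes. Sod1, the cytosolic copper and zinc enzyme, gave 189.6, 217, 270.2 and 287 CPM in null and 233, 225, 185 and 222 CPM in WT animals. HVCN1 null hearts 3 and 4 were above all WT hearts and HVCN1 null heart 1 was below all but WT heart 7 (0.16, SE 0.14, 95% interval -0.16 to 0.47, adjusted p = 0.819). Sod2, the mitochondrial manganese enzyme, had -0.03 (SE 0.13, 95% interval -0.31 to 0.25), a value that was 0.01 with library sizes not scaled. Sod3, the secreted enzyme, had -0.16 (SE 0.17).

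**Figure D3:**
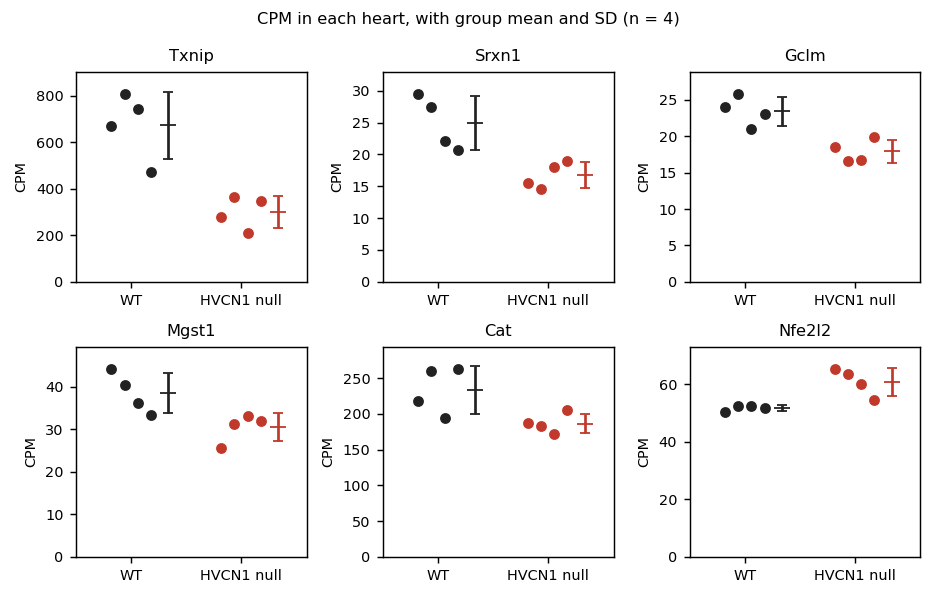
CPM in each heart (points) of the 6 genes with an unadjusted p under 0.05, with the mean and SD of each genotype beside them (n = 4 each), WT in black and HVCN1 null in red, axes from 0. HVCN1 null hearts lie below WT hearts for Txnip, Srxn1, Gclm and Mgst1 and above them for Nfe2l2, while for Cat the genotypes overlap.

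Nfe2l2 (ENSMUSG00000015839, chromosome 2, 75675513 to 75704641) encodes NRF2. Null animals gave 65.2, 63.5, 60.0 and 54.4 CPM, whereas WT animals gave 50.2, 52.4, 52.5 and 51.7 CPM. All HVCN1 null hearts were above all WT hearts, with HVCN1 null heart 4 the nearest to them. The means were 60.8 ± 4.77 and 51.7 ± 1.05, and the log2 fold change of 0.23 (SE 0.08, 95% interval 0.05 to 0.42) did not pass (adjusted p = 0.291, edgeR). Keap1, its inhibitor, had a log2 fold change of 0.00 (SE 0.09, 95% interval -0.20 to 0.20).

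The 5 genes of the NRF2 axis and its targets held 3 positive and 2 negative values, with Keap1 (0.00, and -0.00 with voom) counted as positive. Nqo1, a quinone reductase, gave 36.6, 36.4, 37.6 and 41.1 CPM in null and 50.2, 50.5, 31.5 and 51.8 CPM in WT animals. Of the WT hearts, 5, 6 and 8 were above every HVCN1 null heart and WT heart 7 was below every one. The log2 fold change was -0.28 (SE 0.15, 95% interval -0.60 to 0.05, adjusted p = 0.555), and without WT heart 7 it was -0.42 (adjusted p = 0.06847, in a range of 0.06847 to 1 over 20 alternatives). Hmox1, the inducible heme oxygenase, was low, at 6.10 to 9.91 CPM in HVCN1 null and 6.28 to 11.2 CPM in WT hearts (-0.10, SE 0.20). Hmox2, the constitutive form, had 0.11 (SE 0.09), with 40.2% of its exon bases shared with Cdip1 on the opposite strand.

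The core of the antioxidant response element, TGACNNNGC, was looked for on both strands of the 39 RefSeq windows (250 bases before to 50 bases after a start) that 29 of the 37 genes had. It was in 8 of the 39 windows and in 12.4% of all 32851 windows. The 8 genes were Gclm, Mgst1, Nfe2l2, Prdx1, Sod1, Srxn1, Txnrd1 and Ucp2, and their log2 fold changes ran from -0.57 (Srxn1) to 0.47 (Ucp2). The 6 matches before the start that had 15 bases of window on each side are shown so that genes without overlap (Gclm, Mgst1) can be set beside genes with values near 0 (Txnrd1, Prdx1). Capitals mark the core, each sequence is on the strand that carries it, and all lie on the minus strand of GRCm38.p6, at chr3:122245408-122245446, chr4:116685451-116685489, chr6:138140456-138140494, chr7:100493277-100493315, chr10:82859099-82859137 and chr16:90220691-90220729 in the order given.
Gclm: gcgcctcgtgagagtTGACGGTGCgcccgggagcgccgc
Prdx1: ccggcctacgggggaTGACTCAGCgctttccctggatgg
Mgst1: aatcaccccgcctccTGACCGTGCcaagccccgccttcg
Ucp2: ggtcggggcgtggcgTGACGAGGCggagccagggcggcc
Txnrd1: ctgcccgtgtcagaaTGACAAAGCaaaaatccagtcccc
Sod1: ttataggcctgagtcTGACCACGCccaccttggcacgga
Genes with a match included ones with values near 0, such as Txnrd1 at -0.05 and Prdx1 at -0.07, and ones without overlap, such as Gclm at -0.39 and Mgst1 at -0.34. A match says nothing of whether NRF2 bound there, and the part of NRF2 in these values was not tested. No match in these windows says only that the letters are not there.

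Nnt (ENSMUSG00000025453, chromosome 13, 119335448 to 119408997) encodes the transhydrogenase that makes NADPH in mitochondria, and it is truncated in the C57BL/6J substrain. HVCN1 null hearts read 349, 336, 344 and 394 CPM, and WT hearts 306, 375, 277 and 419 CPM. The genotypes overlapped, with both extremes in WT hearts (0.05, SE 0.14, 95% interval -0.26 to 0.35). Counts over whole genes do not show whether single exons are missing. Nnt was 277 to 344 CPM in the atrium-rich and 349 to 419 CPM in the atrium-poor hearts, so the classes did not overlap.

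Ucp2 encodes an inner membrane carrier of mitochondria found in many cell types. It gave 123, 197, 195 and 134 CPM in null and 135, 55.9, 210.1 and 67.6 CPM in WT animals. WT hearts held both the highest and the lowest value, and the log2 fold change was 0.47 (SE 0.37, adjusted p = 0.773). By class, CPM was 135 to 210.1 in the atrium-rich and 55.9 to 134 in the atrium-poor hearts, without overlap. In the atrium-poor hearts alone, with 2 hearts of each genotype, the log2 fold change was 1.08 (adjusted p = 0.02828, in a range of 0.02828 to 1 over 20 alternatives), and in the atrium-rich hearts alone it was 0.18. Within the atrium-poor class the genotypes still differed in summed atrial marker CPM. It was 338.6 and 355.9 in HVCN1 null hearts 1 and 4 and 150.7 and 109.1 in WT hearts 6 and 8. The part of atrial tissue in the Ucp2 value of this class was not tested. The difference between the classes was -0.88 (rich minus poor, unadjusted p = 0.01317, adjusted p = 0.9999). With the class as a term over all 8 hearts the log2 fold change was 0.62 (adjusted p = 0.1963).

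Gpx3, Prdx4 and Txnrd1 were the other genes of the 37 that did not overlap between the atrial classes, which made 5 of 37 (13.5%), against 5.45% of all tested genes. Gpx3 gave 199, 502, 606 and 207 CPM in null and 516, 193, 882 and 169 CPM in WT animals. It was thus 502 to 882 CPM in the atrium-rich and 169 to 207 CPM in the atrium-poor hearts, a ratio of means of 3.26. Its log2 fold change between genotypes was -0.22 (SE 0.54, 95% interval -1.42 to 0.98) and turned to 0.37 without WT heart 7, the heart with the highest atrial sum. Prdx4 was 11.5 to 12.9 CPM in the rich and 9.41 to 10.6 CPM in the poor hearts, and Txnrd1 was 50.7 to 52.1 and 52.5 to 55.8 CPM. Txnip was 209.8 to 743 and 279 to 806 CPM and did not separate the classes.

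**Figure D4:**
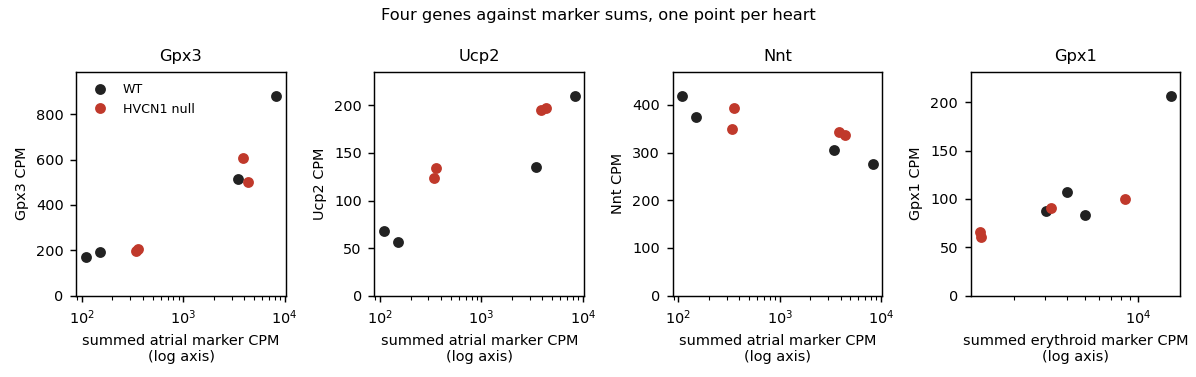
CPM of Gpx3, Ucp2 and Nnt against the summed CPM of the atrial markers, and of Gpx1 against that of the erythroid markers (log axis), with 1 point per heart (WT black, HVCN1 null red). The 4 atrium-rich hearts hold the highest Gpx3 values and the lowest Nnt values in both genotypes, and WT heart 5 is highest in both Gpx1 and erythroid markers.

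Beyond these 37 genes, 88 further redox genes were followed in 7 lists, and 87 passed the filter (all but Slc7a11, the cystine transporter). Of these, 9 (10.3%) had an unadjusted p under 0.05, against 11.0% of all tested genes. For 5 (5.75%) the genotypes did not overlap, against 7.06% of all tested genes. Only 1 of the 87 (1.15%) was a DEG, against 1.14% of all tested genes. This was Glo1, the glyoxalase that clears methylglyoxal with glutathione, at 81.9, 84.7, 124 and 98.6 CPM in null animals against 52.8, 60.1, 54.5 and 63.8 CPM in WT animals. Every HVCN1 null heart was above every WT heart (0.75, SE 0.14, adjusted p = 0.0304, edgeR). Its adjusted p was 0.06849 without HVCN1 null heart 4, 0.09849 without WT heart 5, 0.09441 without WT heart 6, 0.06854 without WT heart 7 and 0.05892 without WT heart 8, in a range of 1.405e-05 to 0.3626 over 20 alternatives. In the list of other glutathione handling, 12 of the 21 tested genes had positive and 9 negative values, and besides Glo1 only Slc3a2, the heavy chain of amino acid transporters, had an unadjusted p under 0.05 (0.28, adjusted p = 0.3594).

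NADPH feeds both the glutathione and the thioredoxin reductases. Of its 14 supply genes, none was called by edgeR's quasi-likelihood test and 2 had an unadjusted p under 0.05, with 6 positive and 8 negative values. Me1, cytosolic malic enzyme, had 84.9, 88.7, 84.4 and 93.5 CPM in null animals against 108, 123, 111 and 130.5 CPM in WT animals. Idh1, cytosolic isocitrate dehydrogenase, had 49.2, 48.6, 45.8 and 51.3 CPM in HVCN1 null and 35.2, 39.8, 34.9 and 41.1 CPM in WT hearts. Both enzymes make cytosolic NADPH, and both genes separated the genotypes without overlap, in opposite directions. These were 2 of the 14 genes (14.3%), against 7.06% of all tested genes without overlap. Nothing about NADPH supply as a whole is read from them. Me1 was lower in HVCN1 null hearts (-0.43, SE 0.09, adjusted p = 0.05729) and Idh1 higher (0.37, SE 0.08, adjusted p = 0.08432), and neither passed in edgeR's quasi-likelihood test. Both were called by edgeR's exact test (adjusted p 0.01518 and 0.03636), its likelihood ratio test (0.01492 and 0.0351) and DESeq2 (5.85e-04 and 0.002448). They were also called with library sizes not scaled and with either atrial term. Over 20 alternatives the adjusted p ran from 5.85e-04 to 0.8826 for Me1 and from 0.002448 to 0.7032 for Idh1, and each was called in 6.

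In the remaining 5 lists no gene was called, by this test or in any of the 20 alternatives. Among 10 other NRF2 pathway regulators, Maff and Mafk, small partners of NRF2, had 0.59 (adjusted p = 0.3464) and 0.28 (adjusted p = 0.4011), and both overlapped between genotypes. Among the 6 genes of heme breakdown and metal binding, Blvra, biliverdin reductase, had 0.46 (adjusted p = 0.2054) without overlap. The 17 other thioredoxin fold and repair proteins and the 8 genes of selenoprotein synthesis and transport held no gene with an unadjusted p under 0.05, and their medians were 0.01 and 0.03. Among the 11 oxidant sources, 4 positive and 7 negative, Cybb, the catalytic subunit of the phagocyte NADPH oxidase, had -0.32 (adjusted p = 0.4212), while the 12 macrophage markers also had negative values. The part of macrophages in this value was not tested. Duox1, a dual oxidase, had 1.23 (adjusted p = 0.3681), from 5.52 CPM in HVCN1 null heart 1 and at most 2.20 CPM in any other heart.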

How the data were processed

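Poly-A RNA from 8 hearts (4 HVCN1 null, 4 WT) was sequenced by the authors, aligned with STAR and counted on genes with featureCounts, per the labels and the study's methods. The deposited table holds raw counts of reads on each gene in each library, made by the authors without normalization. The labels name the mouse build GRCm38 (mm10) while the paper's text names a human genome for the alignment, and the deposited identifiers are mouse ones. Whether counting used strand is not given in the sources used here, so reads of overlapping genes on opposite strands may not be told apart. Symbols, positions and exon lengths came from GENCODE M21 on GRCm38, which held 38872 of the 39056 identifiers.

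With edgeR 4.0.16 in R 4.3.3, genes were kept by filterByExpr (14796), scaled by TMM and tested by the quasi-likelihood test over all 8 hearts, with Benjamini-Hochberg adjustment over all tested genes and an adjusted p under 0.05. SE was the absolute log2 fold change divided by the square root of F. The labels say no more of replicates than that they are separate heart samples, and no pair of libraries of the same genotype agreed within counting noise. The smallest library held 25851255 counts and the largest 38874640.

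The members and lists were chosen with earlier results of these data known. Values in every heart are given for members past an adjusted or unadjusted p of 0.05, members without overlap, Nnt and the member of each role group with the highest level per exon length in WT hearts. Values of companion genes are given for those past either threshold. Other genes named with values (Gpx1, Gpx3, Ucp2, Gclc, Msra and the like) were chosen after their values were seen.

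Alternatives were RLE scaling, no scaling, no filter, a filter of over 1 CPM in 4 or more hearts, the exact test and the likelihood ratio test of edgeR, DESeq2 1.42.0, limma 3.58.1 voom, an adjusted p under 0.01, an atrial score as a covariate, and each heart left out in turn. Fits by atrial class (summed atrial marker CPM above 1000), the class as a term and its interaction with genotype were added after seeing the data. Near-identical copies (at least 95% identity over 80% of the copy) were found with BLAST+ 2.17.0. Promoter windows came from RefSeq on GRCm38.p6, and 8 of the 37 members had none. The fit was tested on simulated counts with known changes. It called 4 of 100 genes changed by 0.5 in log2 and 66 of 98 changed by 1, and 6 of its 76 calls (7.89%) were false. A gene that did not pass may therefore still differ between the genotypes. Plots were made with matplotlib 3.10.9 in Python 3.11.15.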

Additional observations from a re-analysis of the deposited data

Results flagged for a closer look

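In 6 of 74 checks, each on 1 gene in the 4 hearts of 1 genotype, a single heart stood apart from the other 3 by Dixon's test. Chance alone gives about 1 in 20. Gpx8 was 16.99 CPM in HVCN1 null heart 3 and 15.6 to 15.7 CPM in the other HVCN1 null hearts. Txn1 was 49.5 CPM in WT heart 5 and 37.4 to 38.6 CPM in the other WT hearts. Gstm1 was 230.0 CPM in the same heart and 198 to 201 CPM in the other WT hearts. Gsr was 18.65 CPM in HVCN1 null heart 2 against 20.9 to 21.3 CPM, and 22.42 CPM in WT heart 8 against 19.2 to 19.5 CPM. Nqo1 was 31.45 CPM in WT heart 7 against 50.2 to 51.8 CPM in the other WT hearts, so that 1 heart set the spread of its WT group.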

How the results depend on the processing

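Over 20 alternative fits, 687 of 740 log2 fold changes of the 37 genes kept their direction and their side of the threshold. The number of DEGs among all tested genes (169) was 367 by edgeR's exact test, 376 by its likelihood ratio test and 466 by DESeq2, 56 at an adjusted p under 0.01, 24 in the atrium-rich and 71 in the atrium-poor hearts alone, and 71 to 152 with 1 heart left out. Among the 37 genes it was 3 by the exact test, the likelihood ratio test and DESeq2 (Gclm, Srxn1 and Txnip), 0 at an adjusted p under 0.01 and in the atrium-rich hearts alone, 1 (Ucp2 in place of Txnip) in the atrium-poor hearts alone, and 0 to 1 with 1 heart left out. Among the companion genes it was 3 (Glo1, Idh1 and Me1) with library sizes not scaled, by those 3 tests, with the atrial score as a covariate and with the atrial class as a term, 0 in either class alone, and 0 to 1 with 1 heart left out. Hvcn1 was at -4.56 in the atrium-rich hearts alone and no longer passed (adjusted p = 0.05747), as did Txnip in the atrium-rich (-1.31, adjusted p = 0.3409) and atrium-poor hearts alone (-1.01, adjusted p = 0.2522), fits with fewer samples. Other scalings moved the median of all genes by at most 0.04.

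Of the 37 genes, 17 turned direction in at least 1 alternative and 20 in none, and the cause was not tested. With library sizes not scaled, Sod2 was 0.01 and Prdx4 0.00. With the atrial score as a covariate, Sod2 was 0.04 and Gpx8 -0.02, and with voom Keap1 was -0.00. In the atrium-rich hearts alone, Sod2 was 0.10, Gpx8 -0.04, Prdx3 0.04, Txn1 -0.02, Txn2 0.05, Glrx 0.04 and Gsta4 0.11. In the atrium-poor hearts alone, Sod3 was 0.05, Gpx3 0.18, Gpx7 0.11, Prdx4 0.04, Prdx6 -0.05, Keap1 -0.07, Hmox1 0.23 and Nnt -0.08. With 1 heart left out, values ran from -0.10 to 0.03 for Sod2, -0.54 to 0.37 for Gpx3, -0.04 to 0.05 for Gpx8, -0.13 to 0.01 for Prdx1, -0.09 to 0.06 for Prdx4, -0.03 to 0.13 for Prdx6, -0.14 to 0.06 for Txn2, -0.17 to 0.06 for Gclc, -0.04 to 0.06 for Keap1, -0.22 to 0.06 for Hmox1 and -0.04 to 0.16 for Nnt. No paired analysis was made, because the sources used here give no pairing of HVCN1 null with WT hearts. Gpx7, the gene of the 37 with the fewest counts, gave 624 in HVCN1 null and 765 in WT hearts, and 4 hearts a group limit what the test can call.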

Other observations

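Txnip belongs to the alpha-arrestin family, and after its value was seen the family's other members and the Mondo factors were looked up. Arrdc4, the relative that is known to share Txnip's regulation by glucose, was 19.4, 17.6, 14.4 and 19.9 CPM in HVCN1 null hearts 1 to 4 and 20.5, 19.8, 21.0 and 16.4 CPM in WT hearts 5 to 8. These overlapped (log2 fold change -0.12, SE 0.12, 95% interval -0.39 to 0.15, adjusted p = 0.8378, edgeR). Arrdc3 had -0.08 (SE 0.13), Arrdc2 0.26 (SE 0.25) and Arrdc1 0.13 (SE 0.17), and Arrdc5 gave 4 counts in all hearts and was not tested. The glucose-sensing factors Mlxip (MondoA) and Mlxipl (ChREBP) had -0.00 (SE 0.10) and -0.05 (SE 0.09), and their partner Mlx had -0.07 (SE 0.11). No gene of these 7 passed the test, and the lowest unadjusted p among them was 0.3277. RNA levels do not measure the activity of the Mondo factors, and the part of glucose in the Txnip value was not tested.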
